A study of Mus musculus with 10 samples.

Results

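The proteasome genes described here are the 50 genes, of 19938 genes with a probe set of their own on the array, whose symbol begins with Psma to Psmg followed by a number. Each gene was read from its brightest probe set carrying a single symbol, and all 50 lay above the level filter of log2 6.23. The symbols gave 14 subunits of the 20S core (7 alpha and 7 constitutive beta), 3 immunoproteasome subunits, 17 subunits of the 19S cap (6 ATPases of its base and 11 non-ATPases) and 3 chaperones of the 19S base. They also gave 4 activators, 1 inhibitor, 4 chaperones of 20S assembly and 2 tissue-restricted core subunits. Another 2 genes, Psmc3ip and Psme3ip1, match by name only and are no proteasome subunits.

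RNA came from cultured mouse acute myeloid leukaemia cells that express the MLL-AF9 fusion, with 10 arrays in all. Every line, controls included, carried the tamoxifen-activated Cre recombinase Cre-ER, and each line is a separate primary leukaemia. Lines 10949, 10950 and 10986 (called fl) held the conditional Zfx fl/y allele, and lines 10977 and 10980 (called wt) held Zfx wt/y. Zfx is an X-linked zinc finger transcription factor. Every line was cultured for 72 h with 10 nM 4-hydroxytamoxifen (4-OHT) or with ethanol, in medium with IL-3, IL-6 and SCF, and c-Kit-positive cells were then sorted. Each treatment therefore has 3 arrays from fl and 2 from wt lines. The sources used here do not state the age of the mice or the promoter of Cre-ER.

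The proteasome is the protease that degrades proteins tagged with ubiquitin. Its 20S core is a barrel in which outer rings of alpha subunits gate access and inner rings of beta subunits cut the substrate. The 19S cap recognises ubiquitin chains, removes them, and unfolds the substrate with a ring of ATPases. In blood cells and under interferon, the catalytic subunits Psmb6, Psmb7 and Psmb5 can be replaced by Psmb9, Psmb10 and Psmb8, which changes the peptides made for MHC class I display. The activators Psme1 to Psme4 bind the core in place of the 19S cap, and many subunit genes are controlled together by the transcription factor Nfe2l1.

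The array of vehicle-treated line 10986 stood apart from the other 9. Its log2 interquartile range was 2.67 against 2.80 to 3.05 on the others, and its mean correlation with the other arrays was 0.961 against 0.979 to 0.985. Kit, which encodes the sorted surface receptor, had log2 levels of 8.35 to 9.94 over the 10 arrays. The 8 markers of progenitors and MLL-AF9 blasts were all above the filter, and the 5 measured markers of T and NK cells had a summed intensity of only 344 to 413. The Zfx probe set had log2 levels of 9.24 to 10.09 on fl vehicle, 9.98 to 10.07 on fl 4-OHT, and 9.90 to 10.12 on wt arrays. Its 4-OHT change in the fl lines was 0.37 (SE 0.16, limma adjusted p = 0.407), so no loss of Zfx signal was seen. The sources used here do not say whether its probes lie in the deleted part, so this level does not check the labels, and fl and wt below mean the labelled lines.

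With 4-OHT in the fl lines, 0 of the 50 proteasome genes passed limma's test at an adjusted p of 0.05, where 0.153% of all 15662 genes tested passed (0.0511% higher and 0.102% lower). The smallest adjusted p among them was 0.255, for Psme2. At an unadjusted p under 0.05, 5 of the 50 were found (Psme1, Psme2, Psme3, Psmf1 and Psmg1), and 12.3% of all genes. The fitted changes of the proteasome genes were nonetheless mostly positive: 40 were above 0 and 10 below, with a median of 0.20 on the log2 scale beside -0.00 for all genes tested. Brightly measured genes leaned the same way: of the 3002 with a mean log2 of at least 10, 2102 were above 0, with a median of 0.13. Of the 50 proteasome genes, 37 are at such levels. The medians were 0.20 for the 20S core, 0.15 for the 19S cap, 0.23 for the immunoproteasome and 0.33 for the activators.

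**Figure D1:**
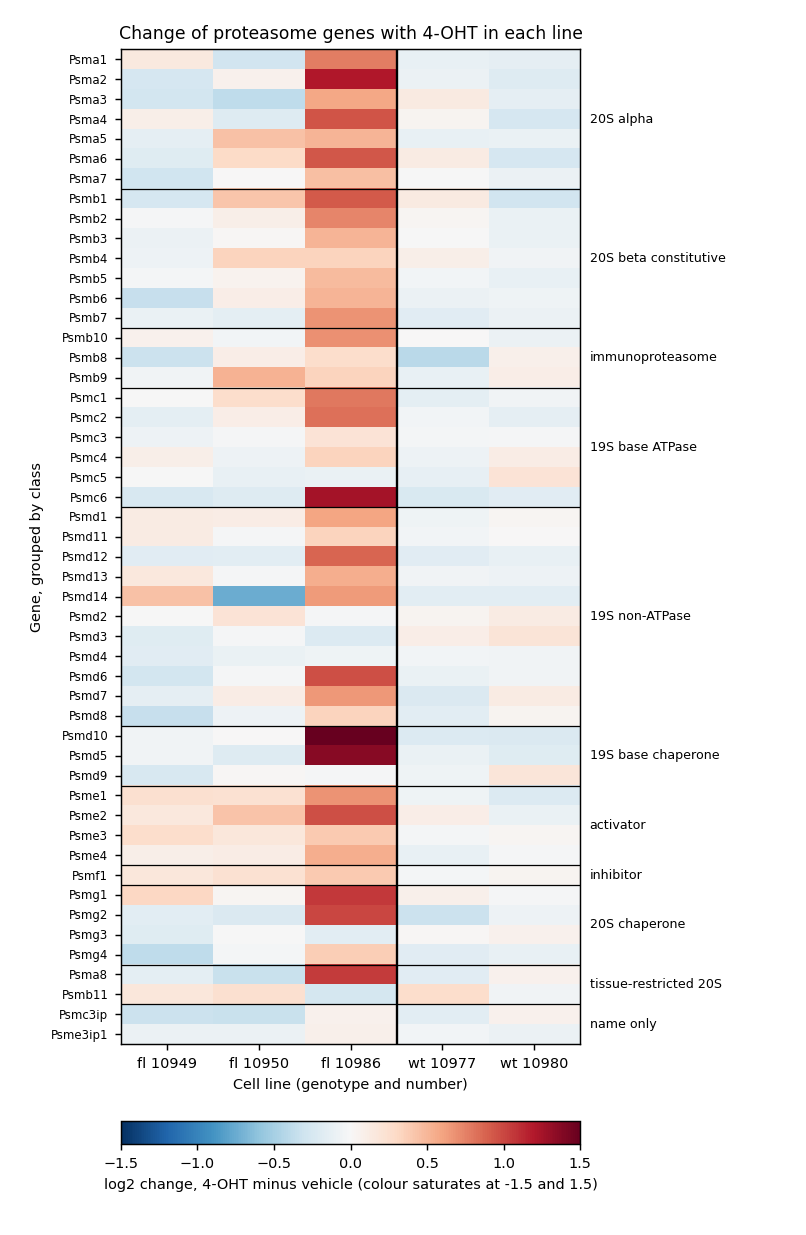
Each row is a proteasome gene, grouped by class, and each column a line; colour gives the log2 change, 4-OHT minus vehicle, 1 array against 1 array, and saturates at the ends of the scale. Line 10986 is positive for 43 of the 50 genes (86%), beside 45.5% of all genes tested and 78.2% of those with a mean log2 of at least 10. The 4 activators and the inhibitor Psmf1 are the classes positive in each of the 3 fl lines.

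The positive sign came mainly from line 10986. Lines 10949, 10950 and 10986 had median changes over the 50 genes of -0.08, 0.01 and 0.55, with 15, 26 and 43 genes above 0. These are 30%, 52% and 86% of the 50, beside 47.4%, 57.5% and 45.5% of all genes tested. Of genes with a mean log2 of at least 10, 47.1%, 46.0% and 78.2% were above 0. Relative to each gene's mean over the 10 arrays, the 50 genes had a median of 0.12 on the 4-OHT array of line 10986 and -0.43 on its vehicle array. Of the 50 genes, 35 (70%) had their lowest level of all 10 arrays on the vehicle array, against 26.1% of all genes tested, and 29 (58%) were more than 0.5 higher with 4-OHT in this line, against 19.5%. Brightly measured genes shared this: of the 3002 genes with a mean log2 of at least 10, 58% were lowest on that array, and of the 37 proteasome genes at such levels, 86.5%. The median change in line 10986 was 0.42 over those 3002 genes and -0.04 over all genes tested. The part played by this array's narrower range in the proteasome values was not tested.

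Without line 10986, 21 of the 50 genes had a positive fitted change in the fl lines and 29 a negative one. Their median was -0.04, beside 0.02 for all genes tested. The medians became -0.04 for the 20S core, -0.05 for the 19S cap and 0.01 for the immunoproteasome, and 0.22 for the activators. Again 0 of the 50 genes passed, with a smallest adjusted p of 0.127 (Psmc3ip), while 440 of all genes (2.81%) did. At an unadjusted p under 0.05 there were 7 proteasome genes, beside 17.9% of all genes.

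**Figure D2:**
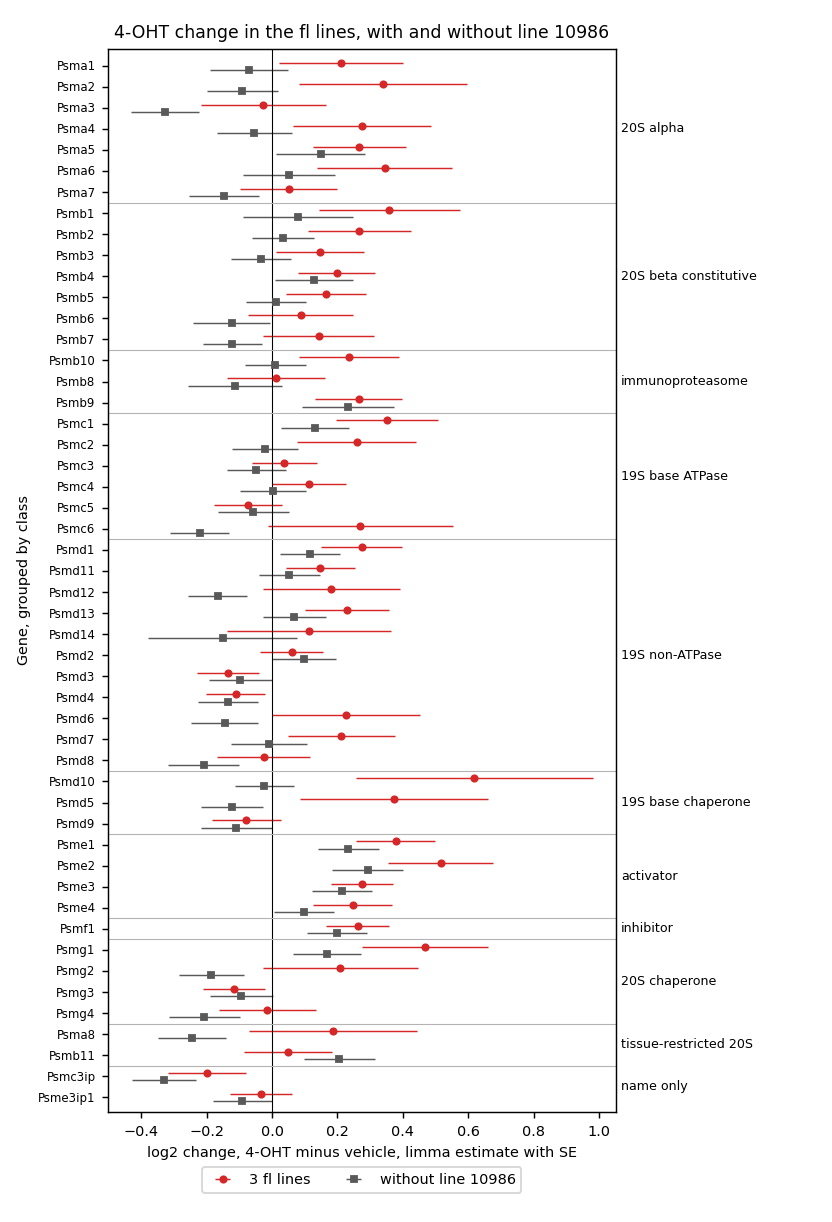
Points are limma estimates of the log2 change, 4-OHT minus vehicle, in the fl lines for each of the 50 genes, and bars are 1 SE; red uses 3 fl lines and grey leaves out line 10986. Most grey points lie left of the red ones, Psmd10 by the most (0.62 against -0.02), whereas the 4 activators stay to the right of 0 under both.

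Among the 20S alpha subunits, which form the gated outer rings, fitted changes in the fl lines ran from -0.03 for Psma3 (SE 0.19) to 0.34 for Psma6 (SE 0.21, limma adjusted p = 0.594). Psma6 differed by -0.19, 0.29 and 0.93 in lines 10949, 10950 and 10986, so the lines did not share a direction. Psma3 differed by -0.27, -0.38 and 0.58, and its 2 other probe sets gave -0.26 and -0.33, -0.39 and -0.42, and 0.57 and 0.47 in the same lines. The largest single value of the class was 1.20 for Psma2 in line 10986, against -0.25 and 0.07 in the other fl lines.

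The constitutive beta subunits hold the catalytic sites of the core. All 7 were lower with 4-OHT in line 10949 (by -0.34 to -0.02) and all 7 higher in line 10986 (by 0.34 to 0.92). Of the 3002 genes with a mean log2 of at least 10, 1588 were lower in line 10949 and 2349 higher in line 10986. Psmb5, the chymotrypsin-like catalytic subunit, had log2 levels of 13.19, 12.72 and 12.63 on fl vehicle and 13.16, 12.77 and 13.10 on fl 4-OHT arrays of lines 10949, 10950 and 10986. Its wt levels were 13.06 and 13.16 on vehicle and 13.02 and 13.05 on 4-OHT. The fl groups overlapped each other and the wt levels, and the fl change was 0.17 (SE 0.12, limma adjusted p = 0.699). The caspase-like subunit Psmb6 had the smallest fitted change (0.09, SE 0.16, adjusted p = 0.961) and the non-catalytic Psmb1 the highest (0.36, SE 0.22, adjusted p = 0.598). The trypsin-like subunit Psmb7 had 0.14 (SE 0.17, adjusted p = 0.889). Without line 10986, Psmb6 and Psmb7 took the other sign, at -0.12 each.

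The ATPases of the 19S base, which unfold the substrate and open the core, had fitted changes in the fl lines from -0.07 for Psmc5 (SE 0.10) to 0.35 for Psmc1 (SE 0.16, limma adjusted p = 0.440). Psmc5 was the ATPase with the most even lines, at -0.01, -0.11 and -0.10. Psmc6 differed most between lines, at -0.24, -0.20 and 1.25. A second probe set of Psmc1 gave -0.20, -0.11 and 0.72, where the brightest gave -0.01, 0.27 and 0.80, so the probe sets disagreed in line 10950.

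Of the 19S non-ATPases, Psmd1, a scaffold subunit of the base, had the highest fitted change (0.27, SE 0.12, limma adjusted p = 0.450) and line values of 0.13, 0.11 and 0.59. Psmd3, a structural subunit of the lid, had the lowest (-0.13, SE 0.10, adjusted p = 0.676). Its log2 levels were 9.70, 9.74 and 10.00 on fl vehicle and 9.51, 9.73 and 9.80 on fl 4-OHT, and 9.60 and 9.71 on wt vehicle and 9.71 and 9.90 on wt 4-OHT. The fl treatment groups overlapped each other and the wt levels. Psmd4, the ubiquitin receptor of the base, was lower in each fl line, by -0.17, -0.10 and -0.06. Psmd14, the deubiquitinase of the lid, had the widest spread of this class between fl lines, at 0.44, -0.74 and 0.64.

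The 19S base chaperones help assemble the ATPase ring before it joins the core. Psmd10 had log2 levels of 11.13, 10.24 and 9.14 on fl vehicle and 11.07, 10.25 and 11.04 on fl 4-OHT arrays of lines 10949, 10950 and 10986. Its wt levels were 10.84 and 11.00 on vehicle and 10.64 and 10.79 on 4-OHT. The vehicle array of line 10986 was lowest of the 10, by more than 1 log2 unit, and gave the change of 1.90 in that line beside -0.05 and 0.01 in the others. Psmd5 showed the same shape, at -0.05, -0.20 and 1.36. Psmd9 had -0.08 in the fit (SE 0.11).

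The activators and the inhibitor were the classes with a positive median in each of the 3 fl lines. All 4 were higher with 4-OHT in lines 10949, 10950 and 10986, with class medians of 0.20, 0.20 and 0.61, while 1 of 4 was higher in each wt line. None of the 4 passed the test. Psme1 and Psme2 encode the 2 subunits of PA28, an interferon-inducible activator. Psme1 had log2 levels of 11.06, 10.65 and 10.42 on fl vehicle and 11.30, 10.88 and 11.09 on fl 4-OHT. On wt arrays it had 10.85 and 10.72 with vehicle and 10.79 and 10.51 with 4-OHT. The fl treatment groups overlapped, with line 10949 high under vehicle, but each fl line was higher with 4-OHT (0.24, 0.23 and 0.67), a mean of 0.38 (SE 0.12, limma adjusted p = 0.270).

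Psme2 had log2 levels of 11.53, 10.76 and 10.62 on fl vehicle, 11.68, 11.19 and 11.59 on fl 4-OHT, 11.23 and 11.22 on wt vehicle, and 11.33 and 11.13 on wt 4-OHT. Its fl change was 0.52 (SE 0.16, limma adjusted p = 0.255), and 0.29 (SE 0.11) without line 10986. A dimmer probe set shared with Psme2b gave 0.20, 0.27 and 1.42 in the fl lines and 0.10 and -0.37 in the wt lines. Psme3, the nuclear PA28 gamma activator, had 11.91, 11.84 and 11.70 on fl vehicle and 12.17, 12.01 and 12.09 on fl 4-OHT, and 12.01 to 12.13 on the 4 wt arrays. It was higher in each fl line, as were 14.6% of all genes tested, and the change was 0.27 (SE 0.10, adjusted p = 0.305).

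Psme4, which encodes the activator PA200, had 10.26, 10.12 and 9.64 on fl vehicle and 10.34, 10.23 and 10.19 on fl 4-OHT, a change of 0.25 (SE 0.12, limma adjusted p = 0.488). Psmf1, which encodes the proteasome inhibitor PI31, differed by 0.17, 0.23 and 0.39 in the fl lines and by -0.03 and 0.04 in the wt lines. In the fit this gave 0.26 (SE 0.10, adjusted p = 0.331). In all, 7 of the 50 genes were higher in each of the 3 fl lines (14%: the 4 activators, Psmf1, Psmd1 and Psmg1), beside 14.6% of all genes tested, and 4 were lower in each (8%: Psmc5, Psmd3, Psmd4 and Psmg3), beside 14.5%. The first share is near the background and the second below it. With array weights, which put 5.71 on the arrays of line 10949 and 0.16 on those of line 10986, Psme1, Psme3, Psmf1 and Psmg1 passed upward and 7 genes passed downward (Psma3, Psma7, Psmb6, Psmc3ip, Psmd8, Psmd9 and Psmg4). That fit called 3907 of all genes.

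**Figure D3:**
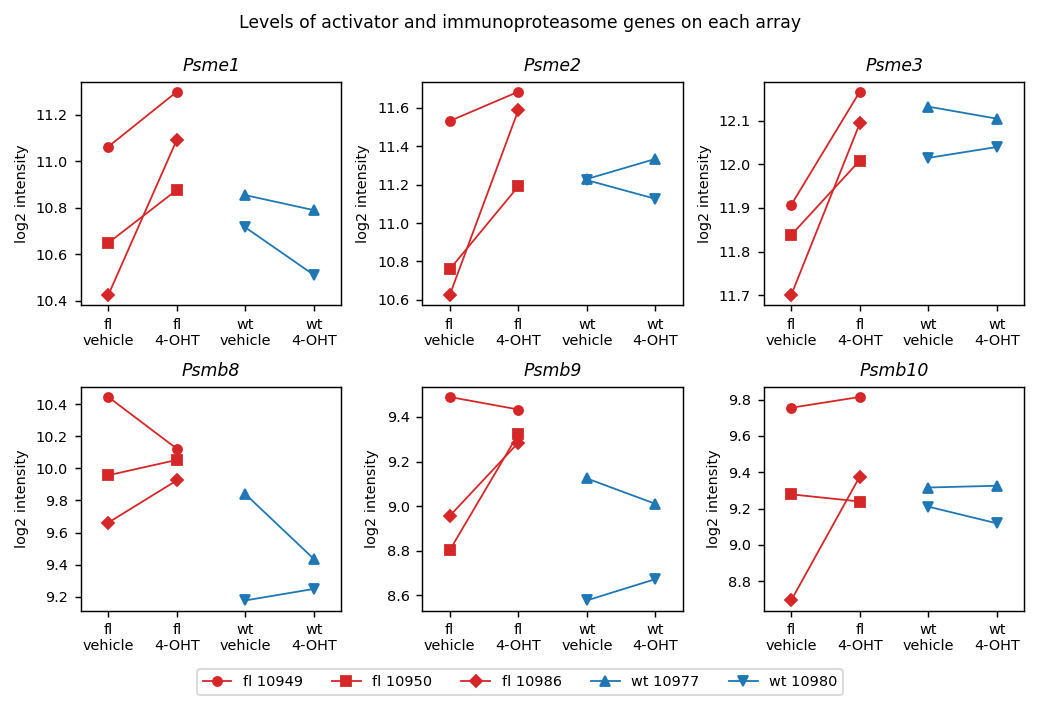
The log2 intensity of 3 activator genes (top) and the 3 immunoproteasome genes (bottom) on every array, with lines joining the vehicle and 4-OHT arrays of each cell line (fl red, wt blue); each panel has its own vertical range, which does not start at 0. Psme1, Psme2 and Psme3 slope upward in each fl line, while Psmb8 and Psmb9 lie higher in the fl than in the wt lines under 4-OHT.

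Most markers of monocytes and macrophages were higher with 4-OHT in the same lines. Of 10 tested, 8 had a positive fitted change in the fl lines and 2 a negative one. Upward, 2 of the 10 passed, beside 0.0511% of all genes tested. In the wt lines, 9 of the 10 were higher in line 10977 and 3 in line 10980. The 10 markers had line medians of 0.91, 0.41 and 0.94 in the fl lines and 0.21 and -0.22 in the wt lines. Their summed intensity was 5334 to 8774 on fl vehicle, 8475 to 14933 on fl 4-OHT, 9257 to 10861 on wt vehicle and 7547 to 12496 on wt 4-OHT arrays. The 10 markers lay above the level filter of log2 6.23, which by itself does not show expression. Of 7 tested neutrophil markers, 6 had a positive fitted change in the fl lines and 1 a negative one. Upward, 1 of the 7 passed, beside the same 0.0511% of all genes. The line medians of the 7 were 0.22, 0.17 and 0.94 in the fl lines and 0.19 and -0.41 in the wt lines. In RNA of sorted but bulk cells, a different share of such cells and a different level per cell cannot be told apart, and the part of these cells in the activator and immunoproteasome values was not tested.

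The immunoproteasome subunits had no shared 4-OHT change in the fl lines. Psmb8, the inducible counterpart of Psmb5, had log2 levels of 10.45, 9.96 and 9.66 on fl vehicle and 10.12, 10.05 and 9.93 on fl 4-OHT, a change of 0.01 (SE 0.15, limma adjusted p = 0.9998). Psmb9, the counterpart of Psmb6, had 9.49, 8.80 and 8.96 on fl vehicle and 9.43, 9.32 and 9.28 on fl 4-OHT, a change of 0.26 (SE 0.13, adjusted p = 0.497). Psmb10, the counterpart of Psmb7, had 9.76, 9.28 and 8.69 and then 9.82, 9.24 and 9.38, a change of 0.23 (SE 0.15, adjusted p = 0.636). Line 10949 was highest of the 3 fl lines for all 3 genes on vehicle.

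The immunoproteasome genes were also compared between genotypes. On wt arrays Psmb8 had 9.84 and 9.18 with vehicle and 9.43 and 9.25 with 4-OHT, and Psmb9 had 9.12 and 8.58 and then 9.01 and 8.67. Under 4-OHT the 3 fl arrays lay above both wt arrays for Psmb8 and Psmb9, as for 12.6% of all genes tested. The differences, fl minus wt, were 0.69 for Psmb8 (SE 0.24, limma adjusted p = 0.300) and 0.51 for Psmb9 (SE 0.22, adjusted p = 0.450), and neither passed. Psmb10 had 9.32 and 9.21 on wt vehicle and 9.33 and 9.12 on wt 4-OHT, so its groups overlapped under 4-OHT, with a difference of 0.25 (SE 0.27, adjusted p = 0.937). Under vehicle the differences were 0.51 for Psmb8 (SE 0.24, adjusted p = 0.516), 0.23 for Psmb9 (SE 0.22) and -0.02 for Psmb10 (SE 0.27).

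Because each inducible subunit takes the place of a constitutive one, their log2 ratio was followed across arrays, centred on its mean over the 10 arrays. For Psmb8 minus Psmb5 it was 0.46, 0.44 and 0.23 on fl vehicle, 0.16, 0.49 and 0.02 on fl 4-OHT, -0.02 and -0.79 on wt vehicle and -0.38 and -0.60 on wt 4-OHT. All 6 fl arrays lay above all 4 wt arrays, though the lowest fl and highest wt values were close, at 0.02 and -0.02. Of the 50 single genes, 0 had all 6 fl arrays above all 4 wt arrays. How often ratios of other gene pairs separate this way was not counted, so this separation cannot be weighed. For Psmb9 minus Psmb6 the fl arrays ranged from -0.15 to 0.28 and the wt arrays from -0.55 to 0.12. For Psmb10 minus Psmb7 the ranges were -0.10 to 0.33 and -0.30 to 0.13. These overlapped between genotypes, and no test was made on the ratios.

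**Figure D4:**
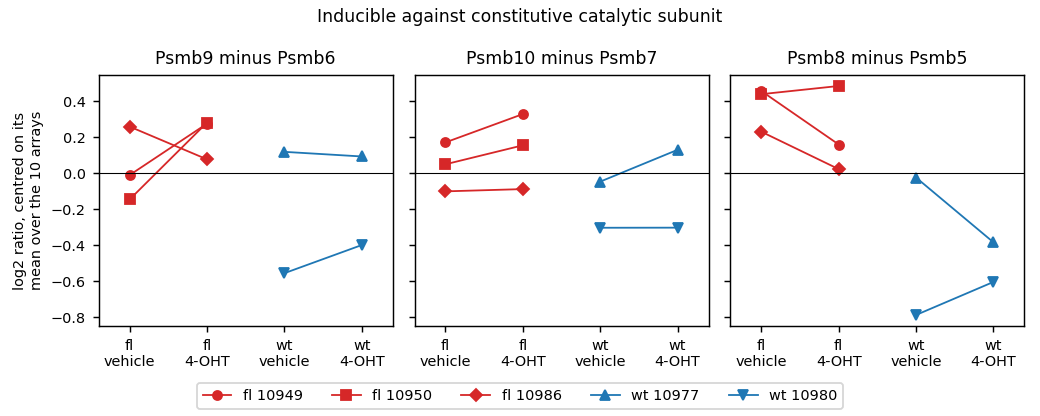
The log2 ratio of each inducible subunit to its constitutive counterpart on every array, minus its mean over the 10 arrays, with lines joining the 2 arrays of each cell line (fl red, wt blue). In the Psmb8 minus Psmb5 panel the fl arrays lie at 0.02 to 0.49 and the wt arrays at -0.79 to -0.02, whereas the other panels overlap. How often other gene pairs separate was not counted.

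Promoter windows are shown for the PA28 genes, which were higher with 4-OHT in each fl line, because interferon acts on these genes. For the same reason those of Psmb8 and Psmb9 are shown, whose fl and wt arrays did not overlap under 4-OHT although neither gene passed. The windows shown were thus picked by values in these data. Each is the strand of the gene, 5′ to 3′, from 250 bases before to 50 after its start, taken from RefSeq on GRCm38.p6. Capitals mark a match to the interferon response element or the STAT site TTCNNNGAA, searched on both strands. The windows are chr14:55578244-55578543 (plus strand) for Psme1, chr14:55591052-55591351 (minus strand) for Psme2, chr17:34197945-34198244 (plus strand) for Psmb8 and chr17:34187281-34187580 (minus strand) for Psmb9.
Psme1: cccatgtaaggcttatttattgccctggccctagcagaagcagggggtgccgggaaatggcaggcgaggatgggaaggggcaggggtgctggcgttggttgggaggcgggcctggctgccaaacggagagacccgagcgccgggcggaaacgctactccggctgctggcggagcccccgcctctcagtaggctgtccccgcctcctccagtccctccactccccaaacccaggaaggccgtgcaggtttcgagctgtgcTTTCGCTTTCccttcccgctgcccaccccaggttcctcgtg
Psme2: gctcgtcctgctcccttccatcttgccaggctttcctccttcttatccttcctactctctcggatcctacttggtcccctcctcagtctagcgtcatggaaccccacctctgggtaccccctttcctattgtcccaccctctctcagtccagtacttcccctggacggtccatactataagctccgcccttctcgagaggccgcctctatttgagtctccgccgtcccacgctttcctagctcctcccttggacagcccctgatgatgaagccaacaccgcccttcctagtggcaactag
Psmb8: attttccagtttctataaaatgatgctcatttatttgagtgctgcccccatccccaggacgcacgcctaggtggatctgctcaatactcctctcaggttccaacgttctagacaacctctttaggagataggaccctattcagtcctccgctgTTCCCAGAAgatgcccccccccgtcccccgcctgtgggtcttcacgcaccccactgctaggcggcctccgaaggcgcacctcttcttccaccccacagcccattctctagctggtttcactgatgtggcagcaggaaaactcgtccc
Psmb9: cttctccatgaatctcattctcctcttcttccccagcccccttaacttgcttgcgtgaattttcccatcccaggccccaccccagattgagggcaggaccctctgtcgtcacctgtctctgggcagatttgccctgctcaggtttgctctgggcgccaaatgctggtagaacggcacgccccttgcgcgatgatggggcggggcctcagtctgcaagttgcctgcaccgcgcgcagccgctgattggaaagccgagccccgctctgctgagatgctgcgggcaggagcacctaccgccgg

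Psme1 held an interferon response element in its window, Psmb8 a STAT site, and Psme2 and Psmb9 neither. Another window of Psme2 and the window of Psmb10, which are not shown, also held neither. A window was found for 42 of the 50 genes, 4 of them with more than 1. The interferon element stood in 10.9% of the 46 windows (Psmb3, Psmd4, Psmd9, Psme1 and Psmg4), against 3.44% of all 32851 windows, and the STAT site in 6.52% against 8.3%. The antioxidant response core TGACNNNGC, the motif of the Nfe2l1 family, stood in 13% against 12.4%. The ZFX core AGGCCT stood in 6.52% (Psmb11, Psmd10 and Psmd5) against 10.3%, and the NF-Y box CCAAT in 34.8% against 37.4%. A match is a run of letters and not a shown binding site.

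Of the chaperones of 20S assembly, Psmg1, which pairs alpha subunits, had the highest fitted change (0.47, SE 0.19, limma adjusted p = 0.391). It differed by 0.31, 0.03 and 1.07 in fl and by 0.08 and -0.02 in wt lines. Psmg3 was lower by -0.18, -0.01 and -0.16 in the fl lines (fit -0.12, SE 0.09). The thymus subunit Psmb11 and the testis subunit Psma8 had 0.05 (SE 0.13) and 0.19 (SE 0.26). The name-only genes had -0.20 for Psmc3ip (SE 0.12, adjusted p = 0.592), a partner in meiotic recombination, and -0.03 for Psme3ip1 (SE 0.09).

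In the wt lines, which share Cre-ER and 4-OHT but not the conditional allele, 0 of the 50 genes passed, as did 0% of all genes. At an unadjusted p under 0.05 there were 0 of the 50, beside 0.147% of all genes. The median over the 50 genes was -0.06, 24 (48%) were lower in both wt lines, beside 24.5% of all genes, and 3 were higher in both, beside 24.3%. Of the bright genes with a mean log2 of at least 10, 38.2% were lower in both wt lines, and of the 37 bright proteasome genes 56.8%. In line 10980, all 14 subunits of the 20S core were lower, with a median of -0.11, and in line 10977 8 of 14 were. Of the 3002 bright genes, 1764 were lower in line 10980 and 1997 in line 10977. Among genes with one direction in both wt lines, those with the smallest p were Psmd3 at 0.15 (SE 0.12), Psmd2 at 0.09 (SE 0.12) and Psmg3 at 0.05 (SE 0.11) on the higher side, and Psmg2 at -0.20 (SE 0.29), Psmg4 at -0.14 (SE 0.18) and Psme1 at -0.13 (SE 0.15) on the lower side.

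The difference of the 4-OHT effect, fl minus wt, asks whether the treatment acted differently where the conditional allele was present. By limma, 0 of the 50 genes passed and 0% of all genes did. At an unadjusted p under 0.05 there was 1 of the 50, Psme1, beside 5.82% of all genes. The highest value was 0.83 for Psmd10 (SE 0.57, limma adjusted p = 0.915), in which line 10986 stood apart. The smallest p on the higher side belonged to Psme1 at 0.51 (SE 0.19, limma adjusted p = 0.798), Psme2 at 0.51 (SE 0.25, adjusted p = 0.875) and Psme3 at 0.28 (SE 0.15, adjusted p = 0.900). In the other direction stood Psmd3 at -0.28 (SE 0.15, adjusted p = 0.891), Psmg3 at -0.16 (SE 0.15, adjusted p = 0.937) and Psmd4 at -0.07 (SE 0.14). All 3 fl changes lay above both wt changes for 10 of the 50 genes (20%), beside 12.3% of all genes, and below both for 3 (6%), beside 11.4%. Those 10 genes all have a mean log2 of at least 10. Of the 3002 genes at such levels, 2153 had a positive difference, with a median of 0.17. How many of the 3002 had all 3 fl changes above both wt changes was not counted. Psme1 and Psme4 were higher in each fl line and lower in both wt lines, beside 4.58% of all genes, and Psmd3 and Psmg3 the reverse, beside 3.49%.

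Between the labelled genotypes under vehicle, 0 of the 50 genes passed, beside 0.0192% of all genes. At an unadjusted p under 0.05 there were 5 (Psma1, Psmd1, Psme3, Psme4 and Psmg3), beside 9.83% of all genes. The medians, fl minus wt, were -0.24 for the 20S core, -0.15 for the 19S cap and 0.23 for the immunoproteasome. Genes with a mean log2 of at least 10 had a median of -0.22, and all genes tested 0.03. The fl vehicle arrays include the outlying array of line 10986. Relative to each gene's mean over the 10 arrays, the 20S core stood at 0.30, -0.18 and -0.55 on the vehicle arrays of lines 10949, 10950 and 10986. The 19S cap stood at 0.09, -0.05 and -0.41. The cause of the low values on that array was not tested. As each line was left out, 10986 among them, the medians ran from -0.47 to -0.08 (20S core), -0.25 to -0.02 (19S cap) and -0.04 to 0.51 (immunoproteasome). The smallest unadjusted p belonged to Psme4, which had 10.51 and 10.63 on wt vehicle and 10.40 and 10.61 on wt 4-OHT. Its difference was -0.56 under vehicle (SE 0.17, limma adjusted p = 0.410) and -0.25 under 4-OHT (SE 0.17, adjusted p = 0.785). Psma1 had 12.20, 12.16 and 11.40 on fl vehicle, 12.35, 11.87 and 12.17 on fl 4-OHT and 12.37 to 12.51 on wt arrays, and differed by -0.58 under vehicle (SE 0.24, adjusted p = 0.504). For these genes all 6 fl arrays lay below all 4 wt arrays, as for 3.58% of all genes tested, and 0 of the 50 lay above all 4, beside 2.75%. Under vehicle alone, 6 of the 50 lay below both wt arrays, beside 12.1% of all genes. Psme3 differed by -0.26 (SE 0.10, adjusted p = 0.486), while Psmg3 at 0.23 (SE 0.10, adjusted p = 0.504) and Psmc5 at 0.27 (SE 0.13, adjusted p = 0.519) stood above the wt arrays without overlap, as for 18.6% of all genes tested.

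Under 4-OHT, 0 of the 50 genes passed between genotypes, beside 0.645% of all genes. At an unadjusted p under 0.05 there were 3 (Psmb8, Psmb9 and Psme1), beside 10.8% of all genes. The medians were 0.02 for the 20S core, 0.03 for the 19S cap and 0.51 for the immunoproteasome. Without overlap, 6 of the 50 genes were higher in the fl lines (Psmb1, Psmb8, Psmb9, Psmc1, Psmc3 and Psme1), beside 12.6% of all genes, and 5 lower, beside 14.2%. Psme1 differed by 0.44 (SE 0.19, limma adjusted p = 0.451). Among the lower genes were Psmd2 at -0.12 (SE 0.10) and Psme3ip1 at -0.13 (SE 0.10). Both genotype comparisons share their arrays with the 4-OHT comparisons.

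Of 19 measured regulators and partners outside the naming rule, 0 passed in any of the 5 comparisons, and their median change in the fl lines was 0.05. Nfe2l1 had 0.05 (SE 0.11, limma adjusted p = 0.966). Sem1, a small subunit of the 19S lid with a symbol outside the rule, had log2 levels of 11.21, 11.07 and 11.17 on fl vehicle and 10.29, 10.46 and 10.49 on fl 4-OHT. Its levels were 10.62 and 11.02 on wt vehicle and 10.52 and 11.25 on wt 4-OHT. Sem1 was lower in each fl line, as were 14.5% of all genes tested, and the change of -0.74 (SE 0.11, adjusted p = 0.0845) missed the threshold. Without line 10986 it was -0.77 (SE 0.12, adjusted p = 0.0220) and passed. Over all alternatives its adjusted p ran from 0.000145 with array weights to 0.358 without line 10949. The change in the fl lines differed from that in the wt lines by -0.81 (SE 0.18, adjusted p = 0.677). Pomp, the maturation factor of the core, differed by 0.17, -0.05 and 1.39 between treatments of the fl lines, a fit of 0.50 (SE 0.26, adjusted p = 0.519).

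Genes that use the peptides of the immunoproteasome were read beside it. Of 10 measured class I antigen processing genes 0 passed, with a median of 0.16 in the fl lines. The largest were Erap1, a peptide trimming enzyme, at 0.35 (SE 0.20), and B2m, the class I light chain, at 0.31 (SE 0.11, limma adjusted p = 0.33). Erap1 differed by -0.05, 0.12 and 0.98 in lines 10949, 10950 and 10986, and B2m by 0.14, 0.23 and 0.56. Of the 10 genes, 7 were above 0 and 3 below. Of 13 tested interferon response genes 0 passed, with a median of 0.09, and 8 were above 0 and 5 below. The highest were Gbp3, an interferon-induced GTPase, at 1.19 (SE 0.25, adjusted p = 0.13) and the chemokine Cxcl10 at 0.71 (SE 0.18, adjusted p = 0.17). The lowest were Socs1 at -0.26 (SE 0.12) and Irf1 at -0.23 (SE 0.11). Irf1 differed by -0.34, -0.15 and -0.21 in the fl lines. In the RefSeq gene order of GRCm38.p6, Tap1, a subunit of the peptide transporter, lies between Psmb9 and Psmb8, and Tap2 follows Psmb8. Tap1 differed by 0.01, 0.32 and 0.20 in the fl lines and by -0.02 and -0.19 in the wt lines, while Psmb9 differed by -0.06, 0.52 and 0.33 and by -0.11 and 0.10. Psmb8 differed by -0.32, 0.10 and 0.26 in the fl and by -0.41 and 0.07 in the wt lines. Tap2 differed by -0.39, 0.10 and -0.26 and by -0.36 and 0.65. These neighbours were all higher in line 10950 and all lower in line 10977. In lines 10949, 10986 and 10980 they shared no direction.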

How the data were processed

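RNA of c-Kit-positive cells was labelled with biotin and hybridised to 1-colour arrays, 1 per line and treatment. The authors deposited 1 intensity per probe set, and RMA is the tool that the submitters' processing notes name. Its version was not given in the sources used here. RMA shares information between arrays. The deposited intensities are on a linear scale, so log2 was taken. Of 35556 probe sets, 21789 carry a single symbol. Genes with a mean log2 of at least 6.23 (the 25th percentile) were tested.

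Changes were tested with limma 3.58.1 (R 4.3.3), two-sided, with Benjamini-Hochberg adjustment over 15662 genes and a threshold of 0.05. The 4-OHT terms for fl and wt lines were fitted with the line as a fixed block, because the design text pairs the treatments within a line. The pairing was checked by correlating the deviations of a line's 2 arrays from their group means: r was 0.78 for line 10949, 0.22 for line 10950, -0.06 for line 10986 and 0.43 for both wt lines. With 2 arrays in each wt group, the deviations of the wt lines mirror each other. The wt value is therefore a single number and cannot check each wt line apart. Genotypes were compared in a model of the 4 groups that took line as a random block (correlation 0.165). The fit was tested on simulated data. The number of arrays limits the precision, and arrays have no read depth.

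The proteasome genes and all lists were chosen with earlier results of these data known. Named were the catalytic pairs, Psme1, Psme2, Nfe2l1, Zfx and Kit, the 3 genes each way with the smallest p and one direction in every line, the extremes of each class, and the 2 largest changes of each list. Psma2, Psmc6, Psmd5, Psmd14, Tap1, Tap2, Socs1 and Irf1 were named after their values were seen. Alternatives were other blocks, filters, scalings, variance priors, array weights and each line left out.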

Additional observations from a re-analysis of the deposited data

Results flagged for a closer look

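For 4 proteasome genes every fl line moved one way with 4-OHT and both wt lines moved the opposite way. The difference of the 4-OHT effect, fl minus wt, was 0.51 for Psme1 and 0.31 for Psme4, which were higher in each of the 3 fl lines and lower in both wt lines, as were 4.58% of all genes tested. It was -0.28 for Psmd3 and -0.16 for Psmg3, which were lower in each fl line and higher in both wt lines, as were 3.49% of all genes. The difference itself was tested with limma and did not pass for any of the 4 (adjusted p = 0.798, 0.908, 0.891 and 0.937 in that order). Each pair of genes makes up 4% of the 50 tested, close to the background. Some of the line changes were near 0: in line 10950 Psmd3 had -0.012 and Psmg3 -0.0072, and in line 10977 Psmg3 had 0.020. Psmg3 also had the lowest mean level of the 50 genes, at log2 6.87, where the level filter was 6.23.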

How the results depend on the processing

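The count of proteasome genes passing limma's test stayed at 0 in all 5 comparisons under every alternative but array weights, so the pairing (no replicate block, or a random one) changed no call among them. With array weights, 11 genes passed in the fl lines, 28 between genotypes under vehicle and 1 (Psme1) under 4-OHT. That setting called 3907, 6371 and 1095 of all genes in these comparisons, and its weights for the genotype fit did not converge. The median fl change of the immunoproteasome was 0.011 with array weights and -0.040 without the vehicle array of line 10986 (and without the block), and 0.0100 to 0.32 when each line was left out. Its difference of effect was 0.020, 0.00089 and 0.053 to 0.38 under the same settings, and between genotypes under 4-OHT it was 0.34 to 0.67 as each line was left out. The activator median in the wt lines was -0.012 with quantile normalization and -0.059 to -0.033 as each line was left out. Without line 10986 the 20S core and 19S cap medians in the fl lines took the other sign, at -0.04 and -0.05.

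Several single genes took the other sign. With array weights the fl change was -0.28 for Psmb6 and -0.25 for Psma7, which both passed, and -0.0062 for Psmb5, -0.083 for Psmb7, -0.27 for Psmb8, -0.11 for Psma6, -0.16 for Psmb1 and -0.14 for Psma8, and the vehicle difference was -0.047 for Psmb9 and 0.017 for Psmb10. With quantile normalization, Psmb8 had -0.032 in the fl lines, and under vehicle Psmb10 had 0.076 and Psme1 0.031. Without the vehicle array of line 10986, Psmb6 had -0.088, Psmb7 -0.062, Psmb8 -0.17 and Psmb10 -0.040 in the fl lines, and under vehicle Psmb10 had 0.25 and Psme1 0.071. As each line was left out, the fl change ran from -0.12 to 0.30 for Psmb6, -0.12 to 0.29 for Psmb7, -0.11 to 0.18 for Psmb8, -0.33 to 0.15 for Psma3, -0.023 to 0.96 for Psmd10, -0.048 to 0.21 for Psmb11 and -0.24 to 0.45 for Psma8. The vehicle difference ran from -0.042 to 0.51 for Psmb9, -0.28 to 0.25 for Psmb10 and -0.25 to 0.071 for Psme1, and the wt change of Psme2 from -0.10 to 0.11. The cause of these shifts was not tested.

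The count of all genes called in the fl lines was 24, and 83 with a random replicate block, 8 with no level filter, 14 with a filter at the 50th percentile, 0 with all probe sets tested, 3 with centred arrays and 61 with quantile normalization. As each line was left out it ran from 0 to 440. Under vehicle it was 3, and 0 to 15 as each line was left out, and under 4-OHT 101, and 0 to 51. For the difference of effect it was 0, and 1 with no replicate block or a random one, 359 with array weights, and 0 to 20 as each line was left out, the 20 without line 10986. With 2 or 3 lines a genotype, the SE of a proteasome gene's change is as large as many of the changes given. Probe sets at low levels have little precision.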
